A study of Mus musculus with 4 samples.

Results

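The genes described here encode the subunits of the receptors for glutamate, GABA and glycine. They were taken by symbol alone from the deposited expression lists, and they are 49 of the 28250 genes listed. The set holds 4 AMPA, 7 NMDA, 5 kainate and 2 delta subunits, 8 metabotropic glutamate receptors (mGlu), 19 GABA-A subunits (the rho subunits included) and 4 alpha subunits of the glycine receptor. They were measured by RNA-seq of poly(A)-selected RNA in TBV2 cells, a feeder-dependent mouse embryonic stem cell (ESC) line kept with LIF on a feeder layer and cultured on gelatin-coated plates. Cells were stimulated for 24 h with 5 µM MS-275, an inhibitor specific for class I histone deacetylases (HDAC), or received solvent for 24 h, and each group had 2 libraries. Nothing in the labels says that the libraries of a group came from separate cultures, so a p-value measures only the spread between these samples. The 10 pluripotency markers examined, among them Pou5f1, Nanog and Sox2, had alignments in all 4 libraries.

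AMPA, NMDA and kainate receptors are tetrameric cation channels opened by glutamate and carry fast excitatory transmission, while the mGlu receptors signal through G proteins. GABA-A and glycine receptors are pentameric chloride channels and are the main fast inhibitory receptors of the nervous system. A GABA-A receptor usually combines alpha, beta and gamma subunits, with delta, epsilon, theta, pi and rho subunits in more specialised receptors, so most channels need several of these genes in the same cell. Class I HDACs remove acetyl groups from histones and act in complexes that keep many neuronal genes silent in non-neuronal cells. The question addressed by the comparison was how inhibition of these enzymes alters the expression profile of ESCs.

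Each gene was read in 2 ways. The deposited expression value is a normalized signal per gene whose formula the sources used here do not give. The deposited alignments were counted here as distinct positions (chromosome, start and strand, each once per library) on the exons of the gene in an mm9 annotation. Between 5608253 and 7359474 distinct positions per library fell on exons, out of 9785619 to 23467935 alignments. Of the alignments, 53.2% (solvent) and 54.4% (MS-275) repeated a position in replicate 1, and 0% did in replicate 2. The values of a library, over 13246 genes (genes are no independent replicates), followed the positions of the other replicate of its group (r from 0.848 to 0.922) more closely than those deposited with the same library (r from 0.779 to 0.885). Replicate numbers below are therefore those of each kind of file, and no library is matched across the 2 kinds. In these bulk samples, more cells of a type and more RNA per cell cannot be told apart.

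Positions were also scaled to 1000000 positions on exons per library (PPM), and levels of different genes were compared in PPM per kilobase of exon. On that scale Grik3 (a kainate subunit) stood highest with 16.9 ± 1.20 (SD, n = 2), followed by Gabrp (the GABA-A pi subunit) with 8.84 ± 0.446. Grik5, a kainate subunit that needs a partner to form a channel, reached 6.81 ± 1.52. Gabrp lay above Grik5 in both solvent libraries. Grm4, an mGlu receptor, followed with 1.31 ± 0.488 among the genes described here. At the other end, 10 members had no position at all in solvent replicate 1 and 15 had none in solvent replicate 2, against 5 and 2 with MS-275. Gabra6 and Glra3 were at 0 in all 4 libraries in both measures, which allows up to 3 positions per library.

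**Figure D1:**
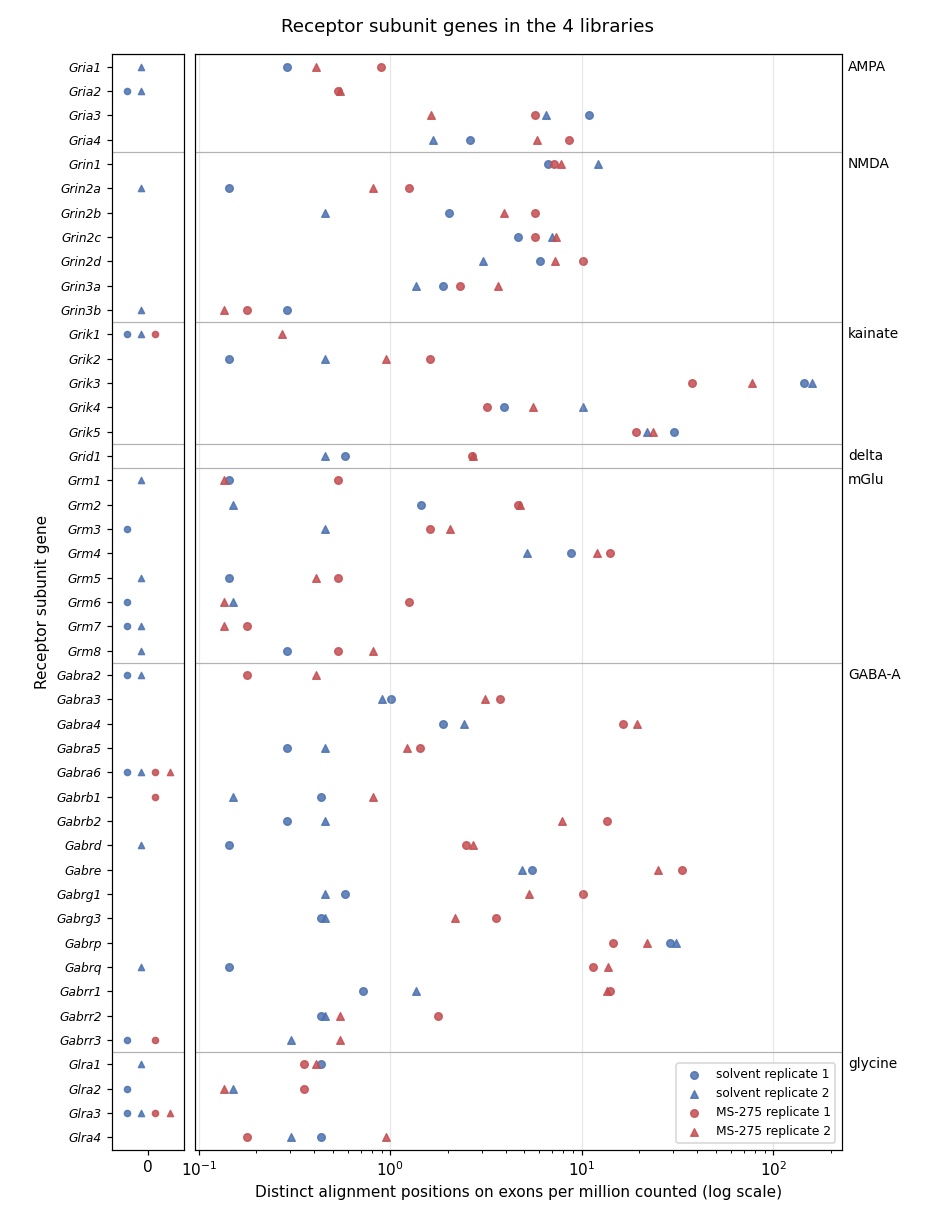
Distinct alignment positions on the exons of 45 receptor subunit genes, scaled to 1000000 positions per library (PPM; log scale; zeros in the left panel), with circles for replicate 1 and triangles for replicate 2, solvent in blue and MS-275 in red. Grik3 is the highest gene in every library and is lower with MS-275, while most GABA-A subunit genes that are near 0 in solvent lie to the right with MS-275.

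In the values, MS-275 lay above solvent in both pairs of replicates for 31 of the 49 members and below it for 4. This rule was not counted over all genes, whose median log2 fold change was itself positive (0.197 for the genes fitted). The 31 and 4 are therefore no trait shown to be particular to the members. At least 2-fold in both pairs (values under 0.001 set to 0.001), 16 members were higher and 3 lower, where 11.5% and 2.04% of all 28250 genes met the same rule. The groups did not overlap for 26 of the 49 members higher with MS-275 and 2 lower, against 26.1% and 9.09% of all genes. The 2-fold count rests on low values, since it falls to 7 higher with a floor of 0.005 and to 2 with a floor of 0.01. The 16 higher were 11 GABA-A subunits, 2 mGlu receptors, 1 AMPA, 1 NMDA and 1 delta subunit, and the 3 lower were 1 GABA-A, 1 AMPA and 1 kainate subunit.

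Tested across all genes, the values gave no call without a replicate block: 0 of the 37 members fitted passed an adjusted p of 0.05 in limma in either direction, where 0.00492% of 20336 genes passed as higher and 0% as lower. At an unadjusted p under 0.05, 13 members were higher and 1 lower, beside 2974 and 564 of the 20336 genes fitted. With the replicate as a block, 14 members were higher and 3 lower, against 21% and 6.46% of the genes fitted. Of the members fitted, 18 had at most 1 solvent library at 0.001, so they needed an MS-275 library to be fitted. The median log2 fold change of the members fitted was 0.37, beside 0.20 for all genes fitted, and every fold change of a value is to be read against the latter. After quantile normalization the medians were -0.01 and -0.03.

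The distinct positions gave more calls. In limma-voom without a block, 13 of the 26 members tested were higher and 1 was lower at an adjusted p of 0.05, where 14.5% and 4.89% of 17015 genes passed. Of the 26, 10 had fewer than 10 positions in both solvent libraries, so they had to be higher with MS-275 to be tested at all, and 9 of those were among the 13. Of the 16 with at least 10 positions in a solvent library, a split made after the data were seen, 4 were higher (Gabra4, Gabre, Gria4 and Grm2) and 1 was lower (Grik3). With the block, 17 were higher and 3 lower, against 29.7% and 13.9%. The count of higher members also fell without any 1 library, and most without MS-275 replicate 1. When every alignment was counted it fell to 5, with none lower, and in that setting only the replicate 1 libraries held repeats. The 5 were Gabrb2, Gabrd, Gabrg1, Gabrq and Gabrr1, all with fewer than 10 positions in both solvent libraries. Gabra4, Gabre, Gria4, Grm2 and Grik3 thus lost their calls there.

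**Figure D2:**
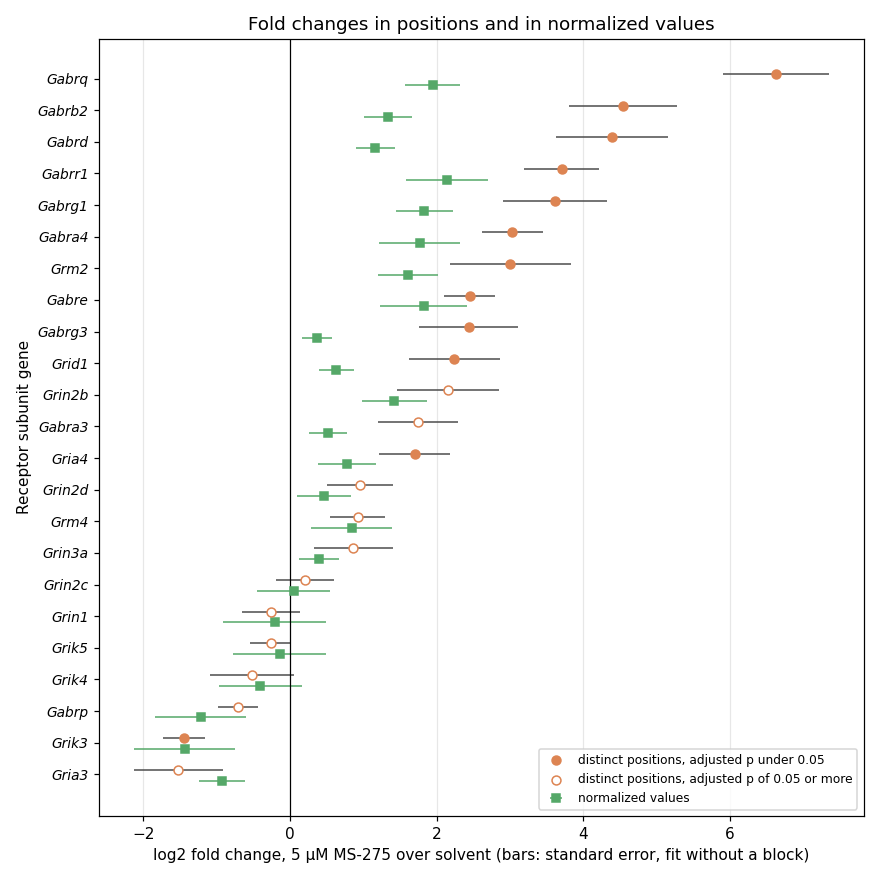
Log2 fold change of 5 µM MS-275 over solvent for 23 of the receptor subunit genes tested in positions (circles, filled at an adjusted p under 0.05) and the same genes in the normalized values (squares, log2 of value plus 0.005), with bars for the standard error of the fit without a block. Gabrq lies farthest to the right with 6.63 in positions, and Grik3 is the filled point on the left of 0 with -1.45; the values lie nearer to 0 for the low genes because of the added 0.005.

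The GABA-A receptor genes gave 10 of the 13 members higher in positions without a block. Of the 19, 18 were fitted in the values, and 9 were higher and 1 lower with the block, where 21% and 6.46% of all genes were. In positions, 13 were tested and 0 were lower without a block, where 14.5% of all genes were higher and 4.89% lower. Summed over the 19 genes, positions in PPM were 67.6 and 88.4 in solvent and 173 and 162 with MS-275, a ratio of the group means of 2.15. Gabrp was not among the genes that rose. The genes higher in the values with the block kept that direction under quantile and median-ratio scaling.

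Of the alpha subunits, which with beta subunits form the GABA binding site, Gabra4 rose. It had 13 and 16 distinct positions in solvent and 92 and 143 with MS-275. The groups were far apart, and the log2 fold change was 3.03 (standard error 0.41, adjusted p = 0.00739). Its values were 0.00437 and 0.00184 in solvent and 0.0343 and 0.0139 with MS-275 (adjusted p = 0.000496 with the block and 0.137 without). The call in positions was lost when every alignment was counted (adjusted p = 0.0867), where only the replicate 1 libraries held repeats. Gabra3 had 7 and 6 positions in solvent and 21 and 23 with MS-275, without overlap, but an adjusted p of 0.0625 (0.00721 with the block). Gabra5 had 5 positions over both solvent libraries and 17 over both MS-275 libraries, a ratio in PPM of 3.54 (95% exact interval 1.25 to 12.3), and Gabra2 had 0 and 4. Gabra6 was at 0. All such intervals cover counting error only.

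Gabrb2, a beta subunit, rose. It went from 2 and 3 positions in solvent to 76 and 58 with MS-275, which gave 4.54 on the log2 scale (standard error 0.73, adjusted p = 0.00938). In values it went from 0.00146 and 0.00042 to 0.00804 and 0.0122 (adjusted p = 0.00139 with the block and 0.0786 without). Gabrb1 had 4 positions in solvent and 6 with MS-275 and was not tested.

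Gamma subunits anchor receptors at the synapse and take part in the benzodiazepine site. Gabrg1 rose from 4 and 3 to 57 and 39 (log2 fold change 3.62, standard error 0.71, adjusted p = 0.0157), and in values from 0.00159 and 0.00058 to 0.0182 and 0.0151 (adjusted p = 0.000142 with the block and 0.0653 without). Gabrg3 had 3 and 3 against 20 and 16 positions (adjusted p = 0.0451), and values of 0.00122 and 0.00028 against 0.00274 and 0.00209 that did not pass with the block (adjusted p = 0.205). The call of Gabrg3 rests on few positions and was lost without any 1 library and when every alignment was counted.

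Subunits of less common GABA-A receptors rose as well. Gabrq, the theta subunit, had 1 and 0 positions in solvent and 64 and 101 with MS-275. The groups were far apart, with a ratio in PPM of 172 (95% exact interval 30.4 to 6829) and an adjusted p of 0.00634. Its values were listed at 0 and 0.00013 in solvent and 0.0207 and 0.00975 with MS-275 (adjusted p = 0.000108 with the block and 0.0600 without). Gabrd, the delta subunit of extrasynaptic receptors, had 1 and 0 positions against 14 and 20, a ratio of 35.4 (95% exact interval 5.94 to 1439, adjusted p = 0.0113). Its values were 0 and 0.00033 against 0.00860 and 0.00479 (adjusted p = 0.00197 with the block and 0.0717 without). For these 2 genes the fitted fold change depends on the small count that limma-voom adds. Their intervals pool the libraries of a group and cover counting error only.

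Gabre, the epsilon subunit, was already measurable in solvent with 38 and 32 positions and rose to 188 and 183. Its log2 fold change was 2.45 (standard error 0.34, adjusted p = 0.00759), and its values were 0.00736 and 0.00435 against 0.0379 and 0.0287 (adjusted p = 0.000451 with the block and 0.151 without). With MS-275 it reached 6.16 ± 1.29 PPM per kilobase (SD, n = 2), beside 5.57 ± 0.783 for Grik5, from which it did not differ beyond the spread. Gabrr1, a rho subunit able to form channels on its own and best known from the retina, rose from 5 and 9 positions to 79 and 100 (log2 fold change 3.70, standard error 0.51, adjusted p = 0.00739). Its values went from 0.00409 and 0.00187 to 0.0406 and 0.0215 (adjusted p = 0.000106 with the block and 0.0918 without), and at 6.05 ± 0.154 PPM per kilobase it stood beside Gabre. Gabrr2 had 6 positions in solvent and 14 with MS-275, a ratio of 2.43 (95% exact interval 0.877 to 7.72), and Gabrr3 had 2 and 4. Counting every alignment, with repeats in the replicate 1 libraries only, ended the call of Gabre (adjusted p = 0.0871).

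Gabrp was lower with MS-275 where the block was used. The pi subunit, found mainly outside the nervous system, had 199 and 204 positions in solvent and 82 and 161 with MS-275. Both MS-275 libraries were lower, at 14.6 and 21.9 PPM against 28.8 and 30.9 in solvent, and the log2 fold change of -0.71 (standard error 0.28) had an adjusted p of 0.116 without the block and 0.00798 with it. Its values were 0.0810 and 0.0534 in solvent and 0.0402 and 0.0155 with MS-275 (log2 fold change -1.22, adjusted p = 0.00516 with the block and 0.363 without).

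Genes that rose lie beside genes with too few positions to be tested and beside Gabra3, which passed only with the block. Most GABA-A subunit genes lie in clusters, and in the 5 clusters described here neighbours are between 20.5 and 474 kb apart (mm9). On chromosome 5, Gabrg1 (chr5:71142286-71233856) and Gabra4 (chr5:71960973-72049547) rose, while Gabra2 between them had 0 and 4 positions and Gabrb1 on the far side of Gabra4 had 4 and 6. On chromosome 11, Gabrb2 (chr11:42233259-42446092) rose and Gabra6 (chr11:42119939-42134574), next to it, was at 0. On the X chromosome, Gabre (chrX:69501338-69520142) and Gabrq (chrX:70070517-70087941) rose on both sides of Gabra3. The adjusted p of Gabra3 was 0.0625 without the block and 0.00721 with it, and its groups did not overlap. On chromosome 7, Gabrg3 passed while Gabra5 was not tested. On chromosome 4, Gabrr1 (chr4:33219496-33250563) rose, and Gabrr2 ends 36.7 kb before it. Differences between neighbours were not tested.

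**Figure D3:**
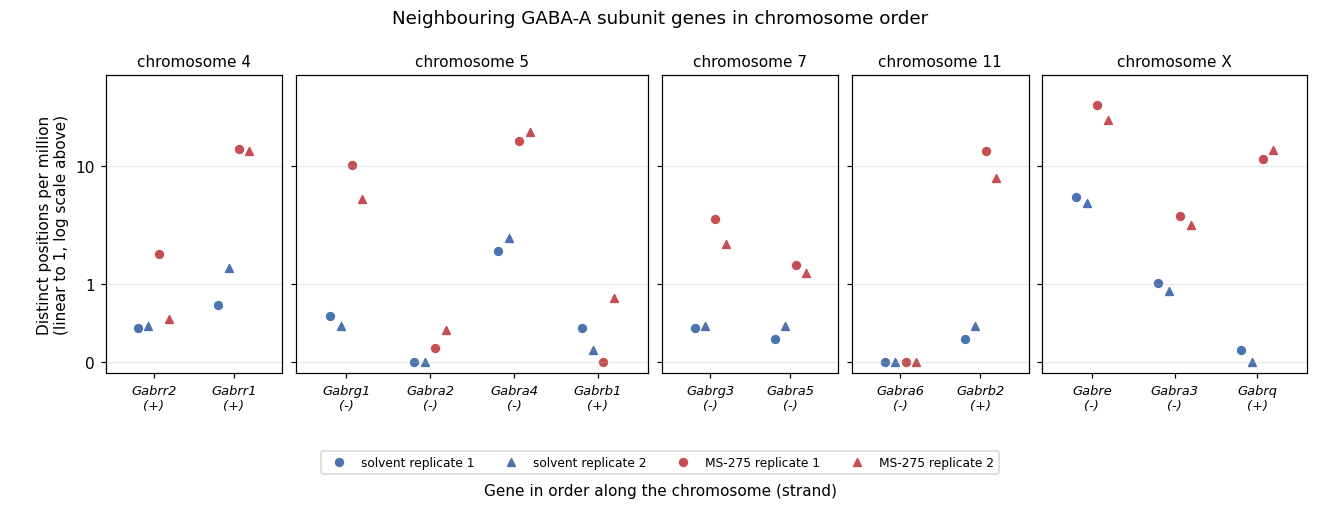
Distinct positions in PPM (linear up to 1, log scale above) for GABA-A subunit genes of 5 chromosomes, in their order along the chromosome and with their strand, circles for replicate 1 and triangles for replicate 2, solvent in blue and MS-275 in red. Gabra2 and Gabrb1 (chromosome 5) and Gabra6 (chromosome 11) show no clear shift beside neighbours that are higher with MS-275, while all 3 genes of the X chromosome are shifted to higher values.

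The sequence before the start of transcription was looked at because HDAC complexes act at promoters. RefSeq promoters (GRCm38.p6) were found for 33 of the 49 members, 40 starts in all, and each of the 40 upstream stretches of 250 bases matched mm9 at exactly 1 place. The one feature counted was the CG dinucleotide, which is its own reverse complement and marks CpG island promoters when dense. At least 20 CG in 300 bases (250 before to 50 after the start) were present in 26.5% of all 32851 promoters and in 12 of the 40 member starts (30%). Counted by gene, at the start with the most, they were present in 12 of the 33 members. They were present in 3 of the 9 members called higher in positions without a block that had a promoter entry, and in 9 of the other 24. The sequences that follow are the 250 bases before the start, in the direction of the gene and with each CG in capitals. The first pair are neighbours on chromosome 5, Gabrg1, which rose (chr5:71233857-71234106, minus strand of mm9), and Gabra2, which had 4 positions with MS-275 and none in solvent (chr5:71487089-71487338, minus strand).
Gabrg1: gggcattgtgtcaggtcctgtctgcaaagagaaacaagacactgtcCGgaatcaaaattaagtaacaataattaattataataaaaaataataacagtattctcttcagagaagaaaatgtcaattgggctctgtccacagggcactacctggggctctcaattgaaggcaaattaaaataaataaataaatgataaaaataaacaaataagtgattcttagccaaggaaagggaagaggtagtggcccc
Gabra2: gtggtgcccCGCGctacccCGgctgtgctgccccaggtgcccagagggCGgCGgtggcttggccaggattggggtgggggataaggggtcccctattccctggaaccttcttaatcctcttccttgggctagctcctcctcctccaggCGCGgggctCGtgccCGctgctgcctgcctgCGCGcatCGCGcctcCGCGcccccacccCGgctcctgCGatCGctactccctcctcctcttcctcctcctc
Gabrg1 holds 1 CG in this stretch and Gabra2 holds 18, or 3 and 25 in the 300 bases around the start. The next pair are genes that were higher in positions with MS-275, Gabrq (chrX:70070267-70070516, plus strand) and Grm2 (chr9:106558441-106558690, minus strand).
Gabrq: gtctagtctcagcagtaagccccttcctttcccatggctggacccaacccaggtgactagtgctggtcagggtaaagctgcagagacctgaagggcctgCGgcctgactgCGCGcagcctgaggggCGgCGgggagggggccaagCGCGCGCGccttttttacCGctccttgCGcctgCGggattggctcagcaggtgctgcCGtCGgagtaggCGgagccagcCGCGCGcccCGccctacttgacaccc
Grm2: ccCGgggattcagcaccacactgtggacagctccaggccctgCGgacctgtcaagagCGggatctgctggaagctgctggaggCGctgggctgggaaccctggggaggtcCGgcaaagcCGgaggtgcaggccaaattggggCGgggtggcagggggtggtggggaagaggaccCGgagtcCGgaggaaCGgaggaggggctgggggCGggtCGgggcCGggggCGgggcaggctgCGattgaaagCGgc
Gabrq holds 19 CG and Grm2 holds 16, or 23 and 22 in the 300 bases around the start. Both are thus among the 3 with at least 20 CG of the 9 members called higher. The last is Grik3, the gene that was highest in solvent and fell (chr4:125167690-125167939, plus strand).
Grik3: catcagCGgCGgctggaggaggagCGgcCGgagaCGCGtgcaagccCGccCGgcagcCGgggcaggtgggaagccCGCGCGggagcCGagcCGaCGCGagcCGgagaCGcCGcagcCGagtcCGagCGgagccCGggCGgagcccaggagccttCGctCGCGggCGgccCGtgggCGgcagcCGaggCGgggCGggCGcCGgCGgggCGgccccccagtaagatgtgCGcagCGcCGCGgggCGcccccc
Grik3 holds 42 CG. The count of CG is a description only and was not tested against the change in expression.

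Gabra4 and Gabrb1 overlap at their 5′ ends. They lie on opposite strands, and the nearer of the 2 RefSeq starts of Gabrb1 is 387 bases inside Gabra4, so that its upstream stretch falls on an exon of Gabra4, while the other start is 41624 bases away. Gabra4 rose and Gabrb1 had 10 positions in all 4 libraries together. In the annotation used for counting, Gabrb1 begins at the farther start, so an exon at the nearer start was not counted for it.

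Of the glycine receptor alpha subunits, which form chloride channels of spinal cord and brainstem, none had enough positions to be tested. Their summed positions were 6 and 3 in solvent and 5 and 11 with MS-275, and none of the 2 fitted in the values passed in either direction. Glrb, the beta subunit that binds the scaffold gephyrin, is no member by the symbol rule but was measurable, with 62 and 78 positions in solvent and 120 and 158 with MS-275 (log2 fold change 1.05, standard error 0.29, adjusted p = 0.0429). Its values were 0.0274 and 0.0113 against 0.0489 and 0.0264 (adjusted p = 0.0496 with the block and 0.626 without).

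Of the glutamate-gated channels, the most abundant one fell. Grik3, a kainate subunit found on both sides of the synapse, had 996 and 1051 positions in solvent and 212 and 567 with MS-275. Every solvent library lay above every MS-275 library, and the log2 fold change was -1.45 (standard error 0.29, adjusted p = 0.0168). The values were 0.153 and 0.0711 in solvent and 0.0729 and 0.0160 with MS-275. These overlap across replicates, although both pairs fell, and the adjusted p was 0.00115 with the block and 0.325 without. Because of Grik3 the summed positions of the kainate subunits in PPM went from 178 and 192 to 61.9 and 107. Grik5 and Grik4 did not pass in either measure with or without the block, and their groups overlapped in positions, but Grik4 passed as lower in positions with the block and median-ratio size factors together (adjusted p = 0.0497). Grik5 had 209 and 145 positions against 108 and 173 (adjusted p = 0.551) and values of 0.0379 and 0.0256 against 0.0398 and 0.0191. Grik4 had 27 and 67 against 18 and 41 (adjusted p = 0.577), a ratio in PPM of 0.654 (95% exact interval 0.464 to 0.915), and values of 0.0180 and 0.00342 against 0.00932 and 0.00269. Grik2 had 4 positions in solvent and 16 with MS-275, a ratio of 4.17 (95% exact interval 1.34 to 17.1), and Grik1 had 0 and 2. The call of Grik3 in positions was lost when every alignment was counted (adjusted p = 0.293), where only the replicate 1 libraries held repeats.

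Of the AMPA subunits, the main carriers of fast excitation, Gria4 rose. It had 18 and 11 positions in solvent and 48 and 43 with MS-275 (log2 fold change 1.70, standard error 0.48, adjusted p = 0.0482), and values of 0.00437 and 0.00237 against 0.0122 and 0.00684 (adjusted p = 0.0390 with the block and 0.362 without). Gria3 had 75 and 43 against 32 and 12 positions, lower in both MS-275 libraries, with an adjusted p of 0.120 without the block and 0.00491 with it. In values it was one of the 2 members whose groups did not overlap on the lower side, at 0.00761 and 0.00885 in solvent and 0.00179 and 0.00211 with MS-275 (log2 fold change -0.93, adjusted p = 0.0120 with the block and 0.166 without). Gria1 and Gria2, the subunits most abundant in forebrain, had 2 and 0 positions over both solvent libraries and 8 and 7 over both MS-275 libraries. The call of Gria4 was lost without solvent replicate 1, solvent replicate 2 or MS-275 replicate 1, and when every alignment was counted. It was also lost with median-ratio size factors (adjusted p = 0.0568) and after thinning to the smallest library (0.0522).

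The NMDA receptor genes summed to 21.7 and 24.0 PPM in solvent and 32.5 and 30.8 with MS-275. Grin1, the subunit every NMDA receptor needs, had 46 and 80 positions in solvent and 40 and 57 with MS-275, and values of 0.0377 and 0.0121 against 0.0261 and 0.0127. The groups overlapped in both measures, and the log2 fold change in positions was -0.26 (standard error 0.40, adjusted p = 0.706). Grin2b, a glutamate-binding subunit typical of early development, had 14 and 3 positions in solvent and 32 and 29 with MS-275. It missed the threshold without the block (adjusted p = 0.0699) and passed with it in positions (0.00225) and in values (0.00153). Grin2a had 1 position on exons in solvent and 13 with MS-275, a ratio of 13.5 (95% exact interval 2.03 to 575). Grin2c (adjusted p = 0.768), Grin2d (0.184) and Grin3a (0.311) did not pass without the block, and Grin2d passed with it (0.0204). The delta subunit Grid1, a receptor-like protein of the synaptic cleft, rose from 4 and 3 positions to 15 and 20 (log2 fold change 2.24, standard error 0.62, adjusted p = 0.0443), with values of 0.00092 and 0.00050 against 0.00534 and 0.00255 (adjusted p = 0.0453 with the block and 0.214 without). This call was lost without any 1 library, when every alignment was counted and with median-ratio size factors (adjusted p = 0.0516).

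The mGlu receptors were higher in sum, at 10.9 and 5.91 PPM in solvent and 23.4 and 20.4 with MS-275. Grm2, an inhibitory presynaptic receptor, had 10 and 1 positions in solvent and 26 and 35 with MS-275. The solvent libraries were uneven but both lay lower, and the log2 fold change was 3.01 (standard error 0.82, adjusted p = 0.0425). Without solvent replicate 2 it was 1.65 and did not pass. The call of Grm2 was also lost without MS-275 replicate 1 or 2 and when every alignment was counted. Its values were 0 and 0.00286 against 0.0169 and 0.0117 (adjusted p = 0.000857 with the block and 0.0848 without). Grm4, of the same inhibitory kind, was the most abundant mGlu receptor with 61 and 34 positions in solvent and 79 and 88 with MS-275, and it passed only with the block (adjusted p = 0.00992, against 0.124 without). Its values were 0.00774 and 0.00645 against 0.0245 and 0.0108 (adjusted p = 0.0567 with the block). Grm3 had 3 positions in solvent and 24 with MS-275, a ratio of 8.33 (95% exact interval 2.53 to 43.2), and the remaining 5 receptors had at most 9 positions in either group.

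Positions of several genes that rose were spread over many of their exons, counted as blocks of merged exons. With MS-275, Gabrg1 had positions in 9 and 8 of its 9 exon blocks, against 2 and 3 in solvent, Gabrr1 in 8 and 10 of 10, against 3 and 5, and Gabrq in 7 and 9 of 10, against 1 and 0. Gabrb2 went from 1 and 1 of 11 to 8 and 7. Fewer blocks were hit in the genes with few positions, 4 and 4 of 8 in Gabrd and 4 and 5 of 11 in Gabrg3 with MS-275. Grik3 kept positions in 14 and 16 of 17 blocks with MS-275 although its count fell.

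**Figure D4:**
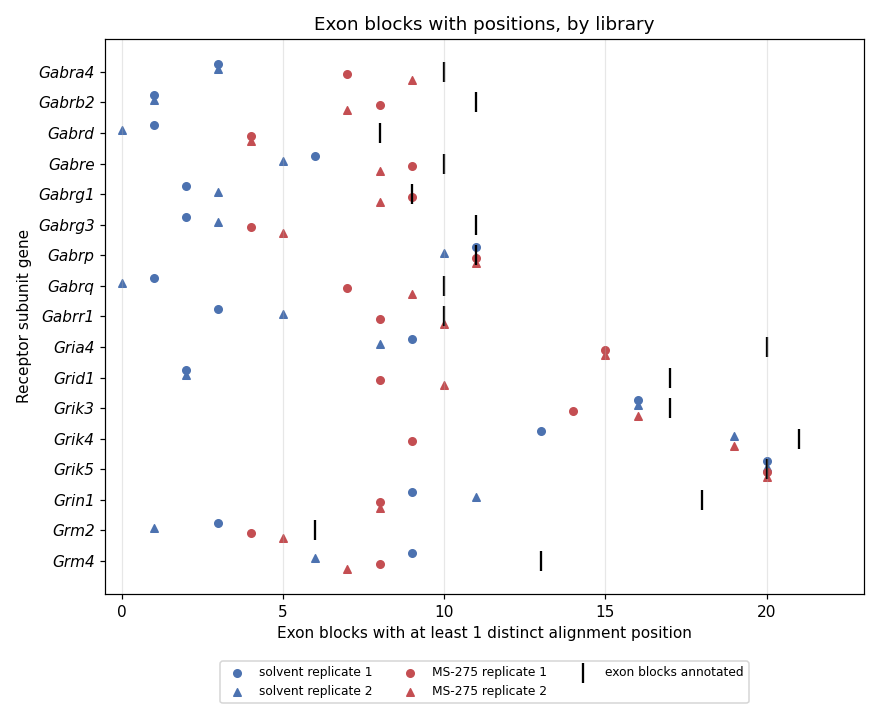
Number of annotated exon blocks with at least 1 distinct alignment position in each library for the 17 genes whose values are given in every library, with circles for replicate 1, triangles for replicate 2, solvent in blue, MS-275 in red and a black tick at the number of blocks annotated. Gabra4, Gabrb2, Gabrg1, Gabrq and Gabrr1 have at least 7 blocks hit in each MS-275 library, while Gabrd has 4.

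Introns held more positions than exons in some members. Gabrp had far more positions in introns than in exons, 1258 and 1555 in solvent and 408 and 777 with MS-275, and per kilobase its introns (50.7 and 62.7 in solvent) were about as dense as its exons (58.9 and 60.4). With MS-275 both fell, to 16.5 and 31.3 in introns and 24.3 and 47.7 in exons, and the part of unspliced RNA in its exon count was not tested. Gabre had 56 and 55 intronic positions in solvent and 184 and 200 with MS-275, and nearly all of them (55, 52, 177 and 193) lay in a stretch of 10000 bases that also holds the annotated microRNA genes Mir224 and Mir452 (chrX:69503366-69513365). Grin2a had few exon positions but 69 and 43 intronic ones in solvent and 643 and 517 with MS-275. Of these, 68, 42, 620 and 496 fell in a single stretch (chr16:9870703-9880702) that holds no annotated exon of any gene. Grik4 had 109 and 129 intronic positions in solvent and 246 and 330 with MS-275, and 2 and 4 against 108 and 181 of them fell in one exon-free stretch (chr9:42382712-42392711). Grm5 and Gria1 had similar stretches, with 8 and 7 against 102 and 46 positions in the former (chr7:94753504-94763503) and 8 and 4 against 74 and 50 in the latter (chr11:56922035-56932034). These stretches were picked as the densest of each gene, so the values describe them and were not tested.

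**Figure D5:**
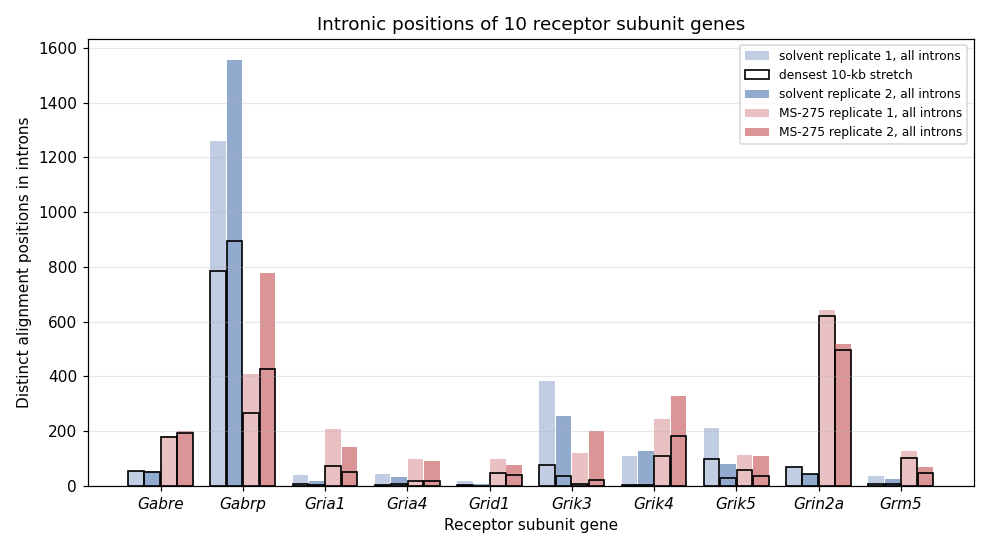
Distinct alignment positions in the introns of 10 receptor subunit genes with at least 100 in some library, as bars from 0 for the 4 libraries (solvent replicates 1 and 2 in blue, MS-275 replicates 1 and 2 in red), with the black outline for the densest stretch of 10000 bases. Grin2a rises from 69 and 43 to 643 and 517 almost entirely inside its outline, and Gabrp falls from 1258 and 1555 to 408 and 777.

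The proteins that work with these receptors were examined as a list of 58 related genes, of which 56 were listed and 50 fitted. With the block 16 were higher and 4 lower in the values, and in positions without a block 11 were higher and 3 lower of 48 tested. Over all genes the shares were 21% higher and 6.46% lower in the former and 14.5% and 4.89% in the latter, and all counts of these lists and of the markers are to be read against them. Without the block none passed in the values. Of the transmitters' transporters, 8 were higher and 2 lower of 12 fitted with the block. Slc17a7, the vesicular glutamate transporter VGLUT1, rose from 45 and 48 positions to 340 and 345 (log2 fold change 2.93, standard error 0.31, adjusted p = 0.00634). Slc6a13, the GABA transporter GAT2, rose from 26 and 15 to 142 and 104 (log2 fold change 2.62, adjusted p = 0.0149). The glial glutamate transporter Slc1a3 fell from 434 and 510 positions to 92 and 116 (log2 fold change -2.11, adjusted p = 0.00634), and the glycine transporter Slc6a9 from 100 and 128 to 23 and 45 (log2 fold change -1.70, adjusted p = 0.0219).

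Of 10 auxiliary subunits fitted, 6 were higher and 0 lower with the block. Neto2, which binds kainate receptors, rose from 159 and 183 positions to 624 and 825 (log2 fold change 2.14, standard error 0.20, adjusted p = 0.00546). Its direction was opposite to that of Grik3. Cnih2, an AMPA receptor partner, had 27 and 23 against 56 and 64 positions (adjusted p = 0.0487). Of 19 scaffolds fitted, 2 were higher and 0 lower with the block, a smaller share than the 21% of all genes, namely Grip1 (131 and 160 against 311 and 417 positions, adjusted p = 0.00990) and Shank1 (52 and 31 against 85 and 82, adjusted p = 0.0846 without the block). Gabbr1, a subunit of the metabotropic GABA-B receptor, fell from 1015 and 1342 positions to 455 and 785 (log2 fold change -0.87, standard error 0.22, adjusted p = 0.0330), and its partner Gabbr2 had 15 positions over both solvent libraries and 9 over both MS-275 libraries. Of 8 genes of transmitter synthesis and breakdown, 0 were higher and 1, Gls2, was lower with the block. Gad1 and Gad2, which make GABA, had 80 and 25 against 19 and 22 positions (adjusted p = 0.279, and 0.0159 with the block) and 15 and 18 against 11 and 12 (adjusted p = 0.609).

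Markers of other cells were counted with the block in the values, where 21% of all genes were higher and 6.46% lower. Of 10 neuronal markers fitted, 3 were higher (Syt1, Elavl3 and Nefl) and 0 lower. The summed positions of the list were 369 and 388 PPM in solvent and 606 and 441 with MS-275, but without Elavl3 they were 335 and 373 against 379 and 355. Stmn2, named after its values were seen, was lower in positions with the block (log2 fold change -0.45, adjusted p = 0.00450), and Dcx had 2 and 0 against 3 and 3 positions. Of 6 glial markers 3 were higher and 0 lower (40.7 and 43.7 against 83.8 and 72.02 PPM). Of 8 fibroblast markers, chosen because of the feeder layer, 5 were higher and 0 lower (137 and 99.4 against 273 and 208 PPM), while Dcn and Col3a1 did not pass in the values and had more positions in solvent, Col3a1 passing as lower in positions with the block (adjusted p = 0.0259). All 10 pluripotency markers had lower values in both pairs and 4 passed with the block (1888 and 2066 against 1353 and 1550 PPM). The part of these cell types in the receptor results was not tested.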

How the data were processed

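RNA-seq of 2 solvent and 2 MS-275 libraries was analysed. The authors deposited a normalized signal per gene (Genomatix expression profile, mm9), whose formula and aligner are not given in the sources used here, and the alignments of 35 bases. Tables of imputed values and of the authors' fold ratios were also deposited and were not used. Per the file headers of the ratio tables, replicate 1 of both groups is the old one, while the names of the alignments call it the new one in both groups. Deviations of same-numbered libraries from their group means correlated (r = 0.764 over 20336 genes in values and 0.603 over 17015 in positions), so the replicate was used as a block beside the fit without one. The block leaves 1 residual degree of freedom per gene, so its p-values rest largely on the variance shared across genes.

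Values were tested as log2(value + 0.005) for genes at 0.001 or more in at least 2 libraries, with limma 3.58.1 (R 4.3.3). Alignments were collapsed to distinct positions, placed by their midpoint on GENCODE M1 exons of mm9 without use of the gene's strand, with exons shared by genes left out, and tested with limma-voom for genes with at least 10 positions in at least 2 libraries. Reads of a gene and an antisense partner cannot be told apart in this count. All p-values were adjusted by the Benjamini-Hochberg method over all genes tested, with a threshold of 0.05, and all tests were two-sided. Ratios of summed positions, scaled to 1000000 per library, carry 95% exact binomial intervals, which cover counting error only; the limit at a count of 0 was 3 positions. Promoters (RefSeq, GRCm38.p6) were placed on mm9 by exact match. The fits were also run on simulated data, whose noise was not taken from these libraries, so that run says nothing on the calls. Python 3.11.15, numpy 2.4.6, pandas 2.3.3 and scipy 1.17.1 were used.

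The members and all gene lists were chosen with earlier results of these data known. Values in every library are given for members called without a block, for the 6 with the highest mean solvent value and for the 12 with the largest change among those with a mean value of at least 0.01 and the same direction in both pairs; other members that are described were named for their family. Of related genes, at most 2 in each direction in each role are named, those that changed most among the genes called with the block in the values, and 5 fixed genes. Single values of some members are not reported here; counts, sums and medians over the families include them.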

Additional observations from a re-analysis of the deposited data

How the results depend on the processing

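The number of receptor subunits called in the values depended on the replicate block. Without it 0 were higher and 0 lower, and with the replicate block 14 and 3 (with median-ratio scaling added, 13 and 3). Keeping only genes with a mean of 0.01 or more, 1 was higher without the block (Gabrr1, adjusted p = 0.0313). Leaving out 1 library at a time gave 0 higher in each case. In positions, 13 were higher and 1 lower; every alignment counted gave 5 and 0, the replicate block 17 and 3, the block with median-ratio size factors 4 lower, the members with 10 positions in a solvent library 4 higher, and leaving out 1 library at a time 8 to 10 higher. For related genes in the values, the 0 higher became 1 with a mean of at least 0.01, 16 with the block, 14 with the block and median-ratio scaling and 0 to 2 without 1 library, and the 0 lower became 4 with the block and 8 with the block and median-ratio scaling.

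The median log2 fold change of the receptor subunits, 0.37, was 0.94 and 0.14 with pseudocounts of 0.001 and 0.02, -0.0061 after quantile normalization and 0.30 to 0.60 without 1 library. The 16 members at least 2-fold higher became 2 with a floor of 0.01, 7 with a floor of 0.005 and 13 to 22 without 1 library, and the 3 lower became 1 with a fold of 3, 1 with every MS-275 library set against every solvent library and 1 to 3 without 1 library.

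Grik4, Grik5 and Grin1, which did not pass with or without the block, changed sign; with the block and median-ratio size factors Grik4 passed as lower in positions (adjusted p = 0.0497). In values, without 1 library Grik4 was -1.13 to 0.32, Grik5 -0.59 to 0.31 and Grin1 -0.87 to 0.45, each above 0 without solvent replicate 1 or MS-275 replicate 2. In positions, Grik4 was -1.22 to 0.14 and Grin1 -0.70 to 0.16, both above 0 without solvent replicate 2. A fit without 1 library assumes that the lone library of its group varies like the others. The cause of these changes was not tested. Where a gene has few positions in solvent, depth limits the size of its fold.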
